A study of Homo sapiens with 24 samples.

Results

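The expression of 10 genes of the Wnt pathway was followed in A549 cells, a line of human lung adenocarcinoma cells, after exposure to the synthetic glucocorticoid (GC) dexamethasone (dex). The genes were DKK1, DACT2, AXIN2, ZNRF3, RNF43, LGR4, FZD7, PORCN, LEF1 and TCF7L2. They were taken by symbol, as antagonists, feedback regulators and core parts of the pathway, and all 10 were found among the 33127 named genes of the count table. The choice was made with earlier results of these data known. A549 cells, grown in medium with 10% serum, received 100 nM dex or an equal volume of its vehicle ethanol (EtOH, 0.02%), and sequencing of poly-A RNA followed at 6 time points (1 h, 3 h, 5 h, 7 h, 9 h and 11 h). Each treatment and time point had 2 libraries, labelled as biological replicates, which made 24 libraries in 12 groups. All cells were of this single cancer cell line with no genetic change made for the experiment. Nothing in the sources used here says that the replicates came from separate cultures, so p-values measure the spread between these libraries.

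Wnt proteins are lipid-modified ligands that need the acyltransferase PORCN to leave the cell. They bind Frizzled receptors such as FZD7 together with an LRP5 or LRP6 coreceptor, which keeps beta-catenin from being degraded and lets it act with the nuclear TCF and LEF factors on target genes. Several targets close negative feedback loops. DKK1 is a secreted protein that blocks the LRP coreceptor, AXIN2 is a scaffold of the complex that degrades beta-catenin, and ZNRF3 and RNF43 are membrane ubiquitin ligases that remove Frizzled receptors from the cell surface. LGR4 binds R-spondins, secreted proteins that take ZNRF3 and RNF43 out of action. DACT2 is a cytoplasmic binding partner of Dishevelled, the protein that relays the signal from Frizzled. In the lung the pathway takes part in epithelial development and repair.

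Promoter sequences are shown for a strongly counted antagonist (DKK1), for a low-level member of the set (DACT2) and for the R-spondin receptor (LGR4). They are the 250 bases before the start of the gene in RefSeq on GRCh38.p14, read 5′ to 3′ on the strand of the gene, at chr10:52314031-52314280 on the plus strand, chr6:168319778-168320027 on the minus strand and chr11:27472791-27473040 on the minus strand. Capitals mark a match to the TCF/LEF letters CTTTGAT or CTTTGAA, read on both strands.
DKK1: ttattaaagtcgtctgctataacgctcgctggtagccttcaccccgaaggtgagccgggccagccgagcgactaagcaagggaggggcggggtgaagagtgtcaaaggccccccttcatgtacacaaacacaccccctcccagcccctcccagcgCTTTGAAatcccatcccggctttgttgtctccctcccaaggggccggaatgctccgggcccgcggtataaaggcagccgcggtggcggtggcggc
DACT2: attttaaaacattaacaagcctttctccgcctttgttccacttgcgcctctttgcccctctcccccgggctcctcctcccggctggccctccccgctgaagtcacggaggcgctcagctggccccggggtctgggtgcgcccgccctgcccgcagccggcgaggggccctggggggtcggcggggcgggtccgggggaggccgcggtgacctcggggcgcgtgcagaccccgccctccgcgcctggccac
LGR4: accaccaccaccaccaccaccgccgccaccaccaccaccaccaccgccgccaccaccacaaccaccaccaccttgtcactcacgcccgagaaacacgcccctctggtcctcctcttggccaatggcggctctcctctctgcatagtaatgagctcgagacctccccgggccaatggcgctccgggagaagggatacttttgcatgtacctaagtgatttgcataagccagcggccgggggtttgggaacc

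The DKK1 stretch held CTTTGAA from 95 bases before the start. Of the 10 genes, 7 had RefSeq promoter entries, 11 in all, since RNF43, PORCN and TCF7L2 have several. The TCF/LEF letters were in 1 of these 11 entries, that of DKK1, and in 5.94% of all 35116 entries of the same length. The letters AGAACA or TGTTCT, which form one side of the palindrome bound by the GC receptor (GR), were in 4 of the 11 entries, against 12.4% of all entries. These were 1 entry each of RNF43, PORCN, LEF1 and TCF7L2. The entries of LEF1 (chr4:108166302-108166551) and TCF7L2 (chr10:113126383-113126632) lie inside the annotated gene and not before its start. The RNF43 entry (chr17:58417535-58417784) overlaps the annotated gene, and its match lies within that overlap. Counted per gene, 14.8% of all genes held these letters in some entry. The entire palindrome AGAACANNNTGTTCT was in none of the 11 and in 0.00285% of all entries. A match to letters is a description of the sequence, not a binding site.

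Library totals ran from 6708864 to 13748598 counts, and the spread between replicates, as the biological coefficient of variation, ran from 6.47% at 7 h to 12.7% at 11 h. TSC22D3, a known GR target that encodes the protein GILZ, was higher with dex at every time point, by 3.25 to 4.49 on the log2 scale. Epithelial markers (EPCAM, CDH1, KRT8, KRT18 and KRT19) were counted in all libraries. Their summed level was 3235 to 5213 CPM (counts scaled to library size by TMM) with EtOH and 3865 to 10630 CPM with dex, most of it KRT8 and KRT18. Summed fibroblast markers were at 6.71 to 25.3 CPM over all libraries, mainly COL1A1, and the leukocyte markers were at 1.01 to 3.88 CPM with CD3E at 0 throughout. Endothelial markers (3 of 4 in the table) stayed at or below 1.06 CPM in sum.

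Compared per length, as TPM (counts divided by transcript length and scaled to the library), DKK1 was the most abundant of the 10 genes in EtOH cells, with a lowest, median and highest library of 272, 299 and 328 TPM. LGR4 followed with 157, 199 and 222 TPM, and TCF7L2 with 35.8, 41.3 and 49.0 TPM. These 3 genes did not overlap each other in the EtOH libraries. AXIN2 (median 11.1 TPM), FZD7 (8.81 TPM), PORCN (8.34 TPM), ZNRF3 (6.86 TPM) and RNF43 (6.53 TPM) came next, and the ranges of neighbours in this order overlapped. DACT2 was low, at 0.621 to 1.84 TPM with EtOH. LEF1 had 2 counts in all, 1 in each of 2 libraries, where 3 counts of a library correspond to 0.216 to 0.454 CPM, so a level below this floor was not detectable at this depth and LEF1 could not be tested. With dex the order of DKK1 (130 to 234 TPM) and LGR4 (124 to 200 TPM) was no longer separated by library range, while both stayed above TCF7L2 (at most 49.4 TPM). How reads shared by several transcripts were placed is not given in the sources used here. Genes with several near-equal transcripts, such as LGR4 and TCF7L2, may therefore stand too high in this order.

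**Figure D1:**
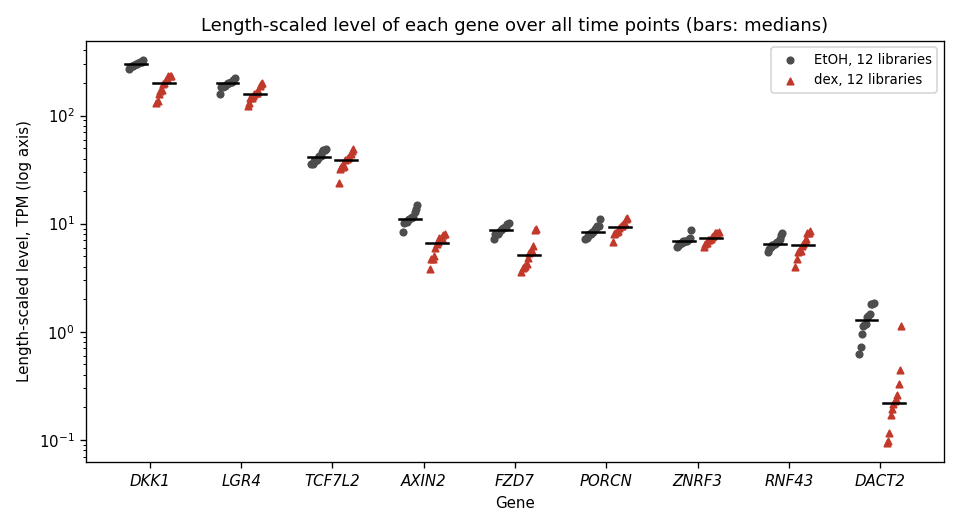
Level of each gene per length, in TPM on a log axis, with 1 point for each of the 12 EtOH and 12 dex libraries, bars at the medians and LEF1 left out. DKK1 and LGR4 lie at 124 TPM or above in all libraries, and DACT2 lies at 1.84 TPM or below.

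In dex against EtOH, tested at each time point with edgeR's quasi-likelihood test on counts summed per gene (Benjamini-Hochberg adjusted p of at most 0.1), AXIN2, DKK1 and FZD7 fell at 5 of the 6 time points. LGR4 and TCF7L2 fell at 5 and 7 h, RNF43 fell at 7 h, ZNRF3 rose at 9 h, and PORCN passed the test at no time point. DACT2 had enough counts to be tested only through its EtOH libraries from 7 h onwards, so that it could be called only lower there, and it is left out of the counts given next. Over the other 8 tested genes, 20 of 21 calls in 48 tests were lower with dex. At 1 h 1 of 8 tested genes was lower, where 0.339% of all genes tested were called lower. At 3 h it was 3 of 8 against 5.86%, at 5 h 5 of 8 against 13.0%, and at 7 h 6 of 8 against 13.6%. At 9 h 3 of 8 were lower against 8.86% and 1 was higher against 10.8%, and at 11 h 2 of 8 were lower against 3.44%. The genes were chosen with earlier results of these data known, so these shares describe the set and do not test it. The median log2 fold change of these 8 genes was -0.02, 0.06, -0.49, -0.44, -0.14 and -0.11 from 1 to 11 h, where the median of all genes tested lay between 0.00 and 0.01. All RNA came from bulk cultures, so fewer cells with a transcript and less transcript per cell cannot be told apart. The counts at 9 and 1 h rested on single libraries. With DACT2 counted in, no member was called at 9 h without the first dex replicate there, and 3 were without the second, against 5. At 1 h no call was left without the first dex or the second EtOH replicate. At 11 h the count was 1 without the first EtOH replicate and 5 without the first dex replicate, against 3.

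**Figure D2:**
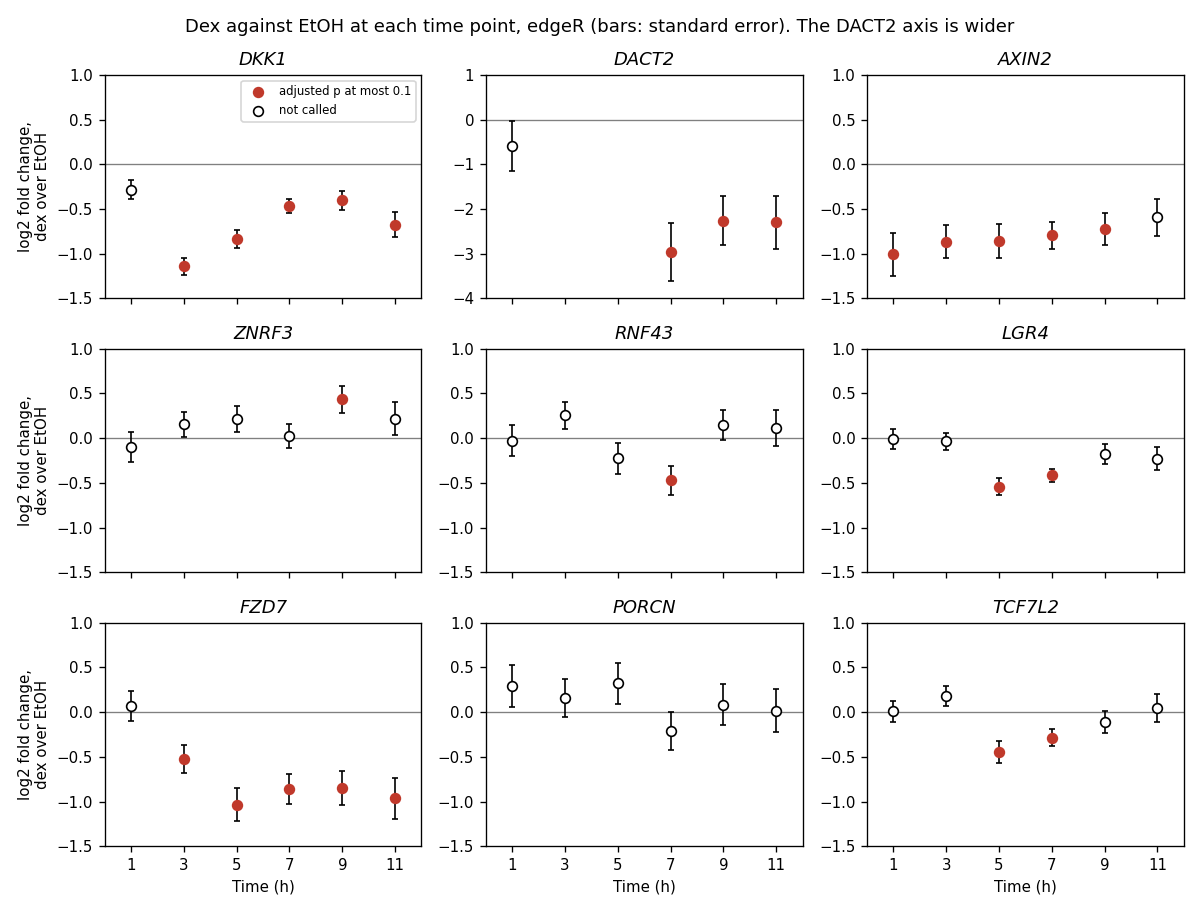
Log2 fold change of dex over EtOH from 1 to 11 h for the genes with enough counts to be tested, with bars of 1 standard error, and filled points where the adjusted p (edgeR) is at most 0.1. Filled points lie below 0 except for ZNRF3 at 9 h (0.43), and DKK1 is lowest at 3 h (-1.14).

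DKK1, the secreted antagonist of the LRP coreceptor, lies on chromosome 10 at 52314296 to 52318042 (GRCh38, plus strand) and was counted on a single transcript with 1243 to 3668 counts per library. With EtOH it stayed at 250 to 293 CPM in all 12 libraries. With dex its 2 libraries were at 214 and 223 CPM at 1 h, 129 and 119 CPM at 3 h, and 160 and 156 CPM at 5 h. They were at 188 and 199 CPM at 7 h, 220 and 204 CPM at 9 h, and 182 and 163 CPM at 11 h. Every dex library was below both EtOH libraries of its time point, and the lowest level came at 3 h. Of all tested genes, 18.4% to 28.6% were separated in this direction at a given time point. The log2 fold change was -1.14 ± 0.10 (SE, 2 against 2 libraries) at 3 h, with an adjusted p of 2.16e-10 from edgeR. It was -0.83 ± 0.10 at 5 h (adjusted p 1.85e-08, edgeR), -0.47 ± 0.08 at 7 h (1.95e-05) and -0.40 ± 0.11 at 9 h (0.0198). At 11 h it was -0.67 ± 0.14 (adjusted p 0.00760, edgeR), and at 1 h -0.29 ± 0.10 did not pass the test (0.512), though it did with the replicate number as a block (0.0448). The effect of dex differed between the time points in one fit over all 24 libraries (edgeR interaction F-test, adjusted p 0.000304). The call at 9 h was lost without either dex replicate (adjusted p 0.253 and 0.397, edgeR), the call at 11 h without the first EtOH replicate (0.331), and 1 h passed without the second dex replicate (0.0796).

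**Figure D3:**
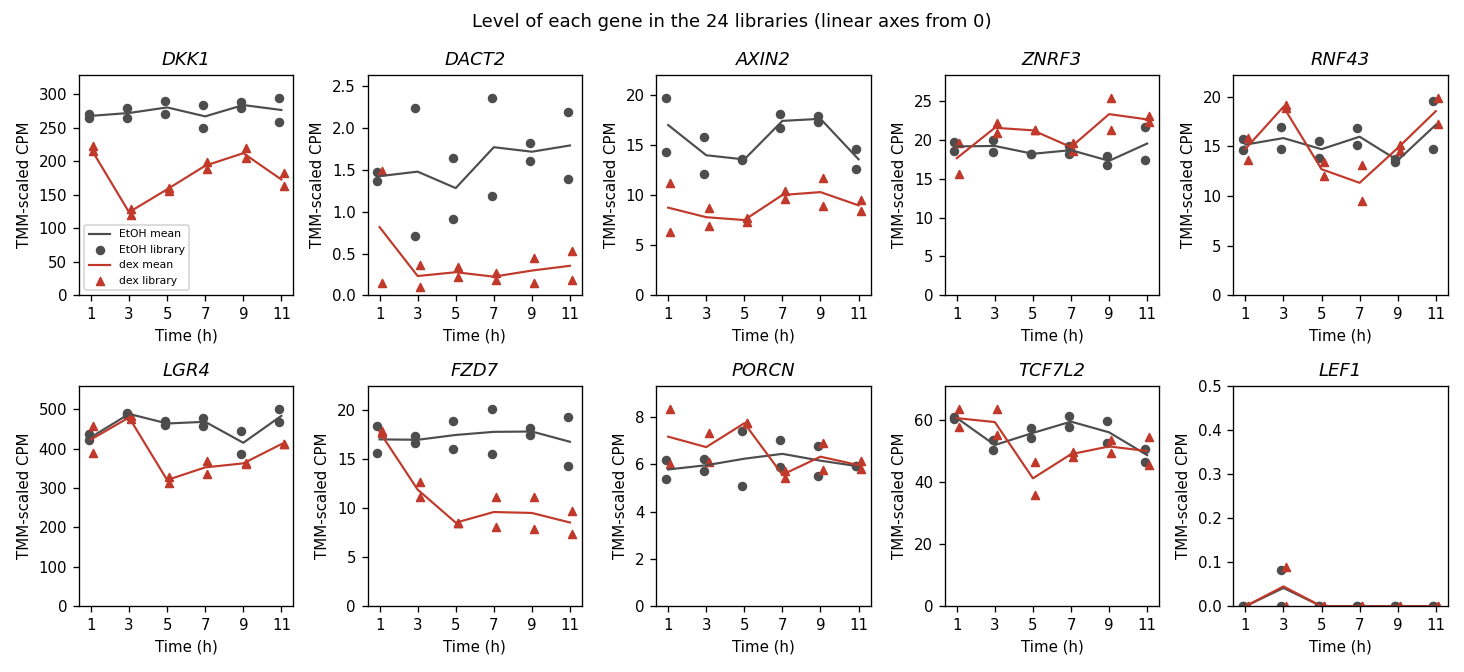
Level of each gene in CPM on linear axes from 0, at 1 to 11 h, with 1 point for each library and a line through the mean of the 2 libraries of a group, for dex and EtOH. DKK1 with dex falls to 129 and 119 CPM at 3 h and lies above that at 9 h (220 and 204 CPM), while its EtOH libraries stay between 250 and 293 CPM.

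DACT2, the partner of Dishevelled (chromosome 6, 168292830 to 168319754, minus strand), had few counts, 245 over the 24 libraries. With EtOH the counts of the 2 libraries were 17 and 19 at 1 h, 7 and 27 at 3 h, 16 and 11 at 5 h, 12 and 24 at 7 h, 18 and 18 at 9 h, and 11 and 20 at 11 h. With dex they were 15 and 1, 1 and 4, 2 and 3, 2 and 2, 1 and 6, and 6 and 2 in the same order. From 3 h onwards both dex libraries were below both EtOH libraries, while at 1 h the dex libraries lay apart from each other, 1 of them level with EtOH. Of all tested genes, 22.7% to 28.6% were separated in this direction at a given time point from 3 to 11 h. In the summed counts of each group the ratio of dex to EtOH was 0.155 at 3 h (exact 95% interval 0.0472 to 0.398), 0.223 at 5 h (0.0669 to 0.586) and 0.123 at 7 h (0.0317 to 0.342). It was 0.202 at 9 h (0.0759 to 0.461) and 0.196 at 11 h (0.0779 to 0.436), where the intervals cover counting error only and scale with the sizes of the libraries. At 1 h the ratio was 0.674 with an interval from 0.349 to 1.25. In edgeR the log2 fold change was -2.96 ± 0.64 at 7 h (adjusted p 0.000742), -2.26 ± 0.54 at 9 h (0.0118) and -2.30 ± 0.59 at 11 h (0.0338). The gene was left out by the filter on low counts at 3 and 5 h and passed it at the later time points only through its EtOH libraries. With no filter it was lower at 3 h (-2.63, adjusted p 0.000866, edgeR) and at 5 h (-2.14, 0.0147), where 3.63% and 7.65% of all genes were called lower. With single libraries left out the log2 fold change ran from -3.36 to -2.38 at 7 h, -3.44 (without the second dex replicate) to -1.88 (without the first) at 9 h, and -3.23 (without the first dex replicate) to -1.75 (without the second) at 11 h. The call at 9 h was lost without the first dex replicate (adjusted p 0.126, edgeR) and at 11 h without the second EtOH replicate (0.444), and DESeq2 gave adjusted p of 0.133 and 0.228 at these times.

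AXIN2, the scaffold and widely used readout of Wnt signalling (chromosome 17, 65528563 to 65561647, minus strand), was lower in both dex libraries than in both EtOH libraries at all 6 time points. At 1 h it was at 14.3 and 19.7 CPM with EtOH and 6.31 and 11.2 CPM with dex. At 5 h it was at 13.6 and 13.6 CPM with EtOH and 7.32 and 7.73 CPM with dex. AXIN2 was the only member called at 1 h in the fit without a replicate block. At 3 h the values were 12.1 and 15.8 against 8.69 and 6.93 CPM, and at 7 h 18.1 and 16.7 against 10.4 and 9.65 CPM. At 9 h they were 17.9 and 17.3 against 8.90 and 11.7 CPM, and at 11 h 12.6 and 14.6 against 9.57 and 8.41 CPM. The EtOH libraries ranged from 12.1 to 19.7 CPM and the dex libraries from 6.31 to 11.7 CPM over the time points, and no dex library reached the lowest EtOH library of any time point. The share of all tested genes with both dex libraries below both EtOH libraries was 18.4%, 24.3%, 27.6%, 28.6%, 28.5% and 22.7% from 1 to 11 h. The log2 fold change was -1.01 ± 0.24 at 1 h (adjusted p 0.0698, edgeR), -0.87 ± 0.19 at 3 h (0.00145), -0.86 ± 0.19 at 5 h (0.000706), -0.79 ± 0.15 at 7 h (0.000181), -0.73 ± 0.18 at 9 h (0.0139) and -0.59 ± 0.21 at 11 h (0.131). No difference of the dex effect between time points was called for AXIN2 (interaction adjusted p 0.899, edgeR), and a change over time in the 12 EtOH libraries was not called either (unadjusted p 0.0606). The call at 1 h was lost without the first dex or the second EtOH replicate (adjusted p 0.162 and 0.848, edgeR) and with DESeq2 (0.178), the call at 9 h without the first dex replicate (0.247), and 11 h passed without either dex replicate (0.00589 and 0.0823). On its strand 25.2% of the exonic bases of AXIN2 are shared with the annotated gene AC004805.1, so reads there could be assigned to either. The fall of AXIN2 does not give the direction of other Wnt targets. Of 4 tested genes listed as common targets, 1 was called higher and 0 lower at 3 h and at 11 h. At 5 h and at 7 h 2 were higher and 1 lower, and at 9 h 2 higher and 0 lower. Of all tested genes, 14.0%, 25.2%, 27.9%, 19.6% and 9.21% were called in either direction from 3 to 11 h.

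ZNRF3 and RNF43, the ubiquitin ligases that clear Frizzled receptors, did not follow AXIN2. ZNRF3 (chromosome 22, 28883592 to 29057487, plus strand) was at 17.8 and 16.7 CPM with EtOH and 25.3 and 21.3 CPM with dex at 9 h. Both dex libraries were above both EtOH libraries there and at 3, 5 and 11 h, and at 1 and 7 h the groups overlapped. The share of all genes separated in this direction was not counted, so this is a description only. In the other direction it was 18.4% to 28.6% of all tested genes. The log2 fold change was 0.43 ± 0.15 at 9 h (adjusted p 0.0796, edgeR), the only rise among the calls, and lay between -0.10 and 0.22 at the other times. That call was lost without either dex replicate (adjusted p 0.570 and 0.196, edgeR) and with DESeq2 (0.338). RNF43 (chromosome 17, 58352500 to 58417595, minus strand) was at 15.1 and 16.8 CPM with EtOH and 13.2 and 9.52 CPM with dex at 7 h, with a log2 fold change of -0.47 ± 0.16 (adjusted p 0.0326, edgeR). It did not pass the test at any other time point, where the log2 fold changes lay between -0.22 and 0.26. The call at 7 h was lost without the second dex replicate (adjusted p 0.397, edgeR) and with DESeq2 (0.305). Of the exonic bases of RNF43, 20.3% overlap TSPOAP1-AS1 on the opposite strand, and the use of strand in counting is not given in the sources used here. On its own strand 57.6% overlap the gene AC004687.2, which is not among the named genes of the count table.

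LGR4, the R-spondin receptor (chromosome 11, 27365961 to 27472775, minus strand), had the most summed counts of the 10 genes, 2516 to 5853 per library. Nearly all lay on 2 near-equal transcripts that can hold the same reads, and DKK1 had more counts than either. At 1 h LGR4 was at 437 and 421 CPM with EtOH and 458 and 389 CPM with dex, and at 3 h at 491 and 485 against 474 and 484 CPM. At 5 h it was at 459 and 469 CPM with EtOH and 327 and 314 CPM with dex, and at 7 h at 478 and 459 against 336 and 369 CPM. At 9 h it was at 444 and 386 against 361 and 364 CPM, and at 11 h at 500 and 467 against 411 and 412 CPM. The dex libraries were thus clearly apart from EtOH at 5 and 7 h and closer to them before and after. At 5 and 7 h, 27.6% and 28.6% of all tested genes had both dex libraries below both EtOH libraries. The log2 fold change was -0.01 ± 0.11 at 1 h and -0.04 ± 0.09 at 3 h, then -0.54 ± 0.10 at 5 h (adjusted p 4.97e-05, edgeR) and -0.41 ± 0.07 at 7 h (4.90e-05). At 9 and 11 h it was -0.18 ± 0.11 (adjusted p 0.344, edgeR) and -0.23 ± 0.13 (0.413). The effect differed between time points (interaction adjusted p 0.0247, edgeR) in each of the fits that left out a library. At 9 h LGR4 passed without the second EtOH replicate (adjusted p 0.00838, edgeR) and at 11 h without the first dex replicate (0.0988).

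FZD7, a Frizzled receptor (chromosome 2, 202034587 to 202038445, plus strand), was at 15.6 and 18.4 CPM with EtOH and 17.6 and 17.9 CPM with dex at 1 h. At 3 h it was at 17.3 and 16.6 against 12.6 and 11.2 CPM, and at 5 h at 18.9 and 16.0 against 8.52 and 8.52 CPM. The groups overlapped at 1 h and were separate at every later time point, with dex lower. From 3 to 11 h, 22.7% to 28.6% of all tested genes were separated in this direction at a given time point. At 7 h FZD7 was at 20.1 and 15.5 against 11.1 and 8.06 CPM. At 9 h it was at 17.5 and 18.1 against 7.90 and 11.1 CPM, and at 11 h at 19.3 and 14.2 against 9.74 and 7.32 CPM. The log2 fold change was 0.07 ± 0.17 at 1 h (adjusted p 0.993, edgeR), -0.52 ± 0.16 at 3 h (0.0296) and -1.04 ± 0.18 at 5 h (2.50e-05). It then stayed at -0.86 ± 0.17 at 7 h (adjusted p 0.000270, edgeR), -0.85 ± 0.19 at 9 h (0.00697) and -0.96 ± 0.23 at 11 h (0.0221). The effect differed between time points (interaction adjusted p 0.0318, edgeR), a call lost without the first dex or the first EtOH replicate at 1 h (0.116 and 0.160). The call at 3 h was lost without the second dex or the first EtOH replicate (adjusted p 0.147 and 0.181, edgeR) and with DESeq2 (0.281), that at 9 h without the first dex replicate (0.161), and that at 11 h without the first EtOH replicate (0.352).

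PORCN, the acyltransferase of Wnt secretion (chromosome X, 48508962 to 48520814, plus strand), was at 5.08 to 7.40 CPM in the EtOH libraries and 5.42 to 8.33 CPM in the dex libraries. Its log2 fold changes lay between -0.21 and 0.32, with adjusted p from 0.376 to 0.988 (edgeR). Among the nuclear factors, LEF1 (chromosome 4, 108047545 to 108168956, minus strand) was at or near 0, with its 2 counts at 3 h, 1 with EtOH and 1 with dex. TCF7L2 (chromosome 10, 112950250 to 113167678, plus strand), the other TCF/LEF factor in the set, was well counted, with 322 to 839 counts per library. At 5 h it was at 54.4 and 57.6 CPM with EtOH and 46.5 and 36.1 CPM with dex, and at 7 h at 57.8 and 61.4 against 48.2 and 49.97 CPM. Both dex libraries were lower at these times, as in 27.6% and 28.6% of all tested genes, and not at 1, 3, 9 or 11 h. At 3 h TCF7L2 was at 50.4 and 53.7 CPM with EtOH and 63.6 and 55.3 CPM with dex. The log2 fold change was 0.18 at 3 h (adjusted p 0.387, edgeR), -0.45 ± 0.12 at 5 h (0.00762), -0.29 ± 0.10 at 7 h (0.0306) and 0.04 at 11 h (0.939). The effect differed between time points (interaction adjusted p 0.0988, edgeR), but the call was lost in 18 of the 24 fits that left out a library and with a DESeq2 likelihood ratio test (0.114). The call at 5 h was lost without the second dex replicate (adjusted p 0.245, edgeR), and the call at 7 h without either dex replicate (0.239 and 0.117) and with DESeq2 (0.224).

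Across the time points 4 of the 9 tested genes had a dex effect that differed between time points (DKK1, LGR4, FZD7 and TCF7L2), where 13.8% of all genes tested were called in the same F-test. DKK1 reached its lowest fold change at 3 h, and FZD7, LGR4 and TCF7L2 reached theirs at 5 h. In the direct contrast of the dex effect at 11 h against 5 h, none of the 9 was called by edgeR, where 2.42% of all genes were, and 2 had an unadjusted p under 0.05, TCF7L2 (difference 0.48 on the log2 scale, adjusted p 0.218) and LGR4 (0.30, adjusted p 0.334). In the 12 EtOH libraries none of the 9 changed with time in edgeR, where 3.24% of all genes were called, and none had an unadjusted p under 0.05. The same count of 0 was found with the size factors of DESeq2.

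At the level of single transcripts the counts of DKK1 and FZD7 lay on 1 transcript each. LGR4-201 held 49.7% and LGR4-202 49.0% of the counts of LGR4, and both fell at 5 h (-0.51 and -0.55 on the log2 scale) and at 7 h (-0.43 and -0.44). AXIN2-201 held 72.8% of the counts of AXIN2 and fell at 3, 5, 7 and 9 h, and AXIN2-202, with 13.9%, fell at 5 and 7 h. ZNRF3-203, with 80.1% of the counts of ZNRF3, carried the rise at 9 h (0.52). For TCF7L2, 7 transcripts held 11.8% to 13.1% each, and the only call was TCF7L2-218 at 7 h (-0.68). RNF43-203, with 17.3% of its gene, fell at 7 h by 1.06 on the log2 scale. At 1 h none of 28 tested transcripts of these genes was called by edgeR, where 0.439% of all transcripts were, although 4 had an unadjusted p under 0.05, and at 3 h 3 of 30 against 7.82%. At 5 h it was 7 of 23 against 16.7%, at 7 h 8 of 25 against 18.3%, at 9 h 4 of 26 against 11.6%, and at 11 h 2 of 25 against 5.49%. The placement of reads shared by several transcripts is not given in the sources used here, so near-equal shares can hold the same reads.

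Of 92 other genes of the pathway, 62 had enough counts to be tested at 1 or more time points. None of 57 was called at 1 h by edgeR, where 0.857% of all genes tested were called in either direction, and 5 had an unadjusted p under 0.05. At 3 h 13 of 60 were called (6 higher, 7 lower) against 14.0% of all genes, at 5 h 26 of 58 (11 higher, 15 lower) against 25.2%, and at 7 h 24 of 59 (9 higher, 15 lower) against 27.9%. At 9 h it was 23 of 60 (11 higher, 12 lower) against 19.6%, and at 11 h 10 of 59 (5 higher, 5 lower) against 9.21%. Both directions were present among these calls, and the list median stayed between -0.06 and 0.04 on the log2 scale. This list too was chosen with earlier results of these data known, so the shares are a description. The higher calls from 3 to 11 h include SFRP5 at each time point. It had enough counts to be tested only through its dex libraries and could be called only higher. The receptors and coreceptors are given apart from the other groups of the list, after their values were seen. Among 12 tested receptors and coreceptors, 4 were called lower and 1 higher at 3 h, where 5.86% of all genes were called lower. At 5 h 5 were lower and 1 higher, against 13.0%. At 7 h 6 were called lower against 13.6%, at 9 h 6 lower against 8.86%, and at 11 h 2 lower against 3.44%, with none higher. Their median log2 fold change was -0.01, -0.11, -0.26, -0.30, -0.44 and -0.25 from 1 to 11 h. The lower calls at 5 h include FZD8, which passed the filter on low counts there only with its EtOH libraries. Receptors with a negative mean log2 fold change and calls at consecutive time points were FZD2, FZD3, FZD5, FZD8, LRP6 and ROR1, while LRP5 (2 calls, mean 0.08) and FZD4 (1 call, mean 0.15) had a positive mean. The mean does not give the direction of a call, and the 2 calls of LRP5, at time points not consecutive, were not both higher. Other groups of the list did not all fall. Of 18 tested cytoplasmic regulators 1 was called lower and 0 higher at 3 h. Of 17 tested, 2 were higher and 0 lower at 5 h, and 3 higher and 0 lower at 7 h. At 9 h 4 were higher and 1 lower, and at 11 h 0 were called.

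The genes that fell most among those called at consecutive time points were FZD8, WNT7B and RSPO3. FZD8, another Frizzled receptor, was at 7.28 and 5.41 CPM with EtOH and 1.20 and 0.559 CPM with dex at 5 h, a log2 fold change of -2.82 ± 0.36 (adjusted p 6.34e-08, edgeR). Its dex libraries held 11 and 5 counts at 5 h, so it passed the filter on low counts there only with its EtOH libraries. At 5 h it could thus be called only lower. WNT7B, a ligand made by lung epithelium, was at 86.9 and 94.9 CPM with EtOH and 48.9 and 47.2 CPM with dex at 3 h (-0.93 ± 0.11, adjusted p 1.75e-07, edgeR). RSPO3, an R-spondin and thus a ligand of LGR4, was at 273.6 and 305 CPM with EtOH and 143 and 140.3 CPM with dex at 5 h (-1.04 ± 0.10, adjusted p 1.44e-10, edgeR). In each of these the dex libraries lay below both EtOH libraries, as in 24.3% of all tested genes at 3 h and 27.6% at 5 h. The 3 genes were picked for their fall, so this is a description only. The genes that rose most were SFRP5, TLE3 and DKK3. SFRP5, a secreted protein that binds Wnt ligands, had 3 and 2 counts with EtOH and 31 and 36 with dex at 7 h, a ratio of 14.8 in the summed counts (exact 95% interval 6.03 to 47.0, counting error only). It had enough counts to be tested only through its dex libraries, so its calls from 3 to 11 h could be only higher. At 1 h, where SFRP5 was not tested, it had 1 and 7 counts with EtOH and 0 in both dex libraries. Its mean log2 fold change thus covers 5 time points. TLE3, a corepressor that binds TCF factors, was at 15.5 and 15.6 CPM with EtOH and 51.4 and 39.7 CPM with dex at 3 h (1.54 ± 0.14, adjusted p 1.27e-09, edgeR). DKK3, a relative of DKK1 in sequence, was at 12.9 and 8.82 CPM with EtOH and 28.4 and 20.7 CPM with dex at 5 h (1.18 ± 0.19, adjusted p 1.39e-05, edgeR). From 3 to 11 h DKK3 was called higher and DKK1 lower, and at 1 h neither passed the test.

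**Figure D4:**
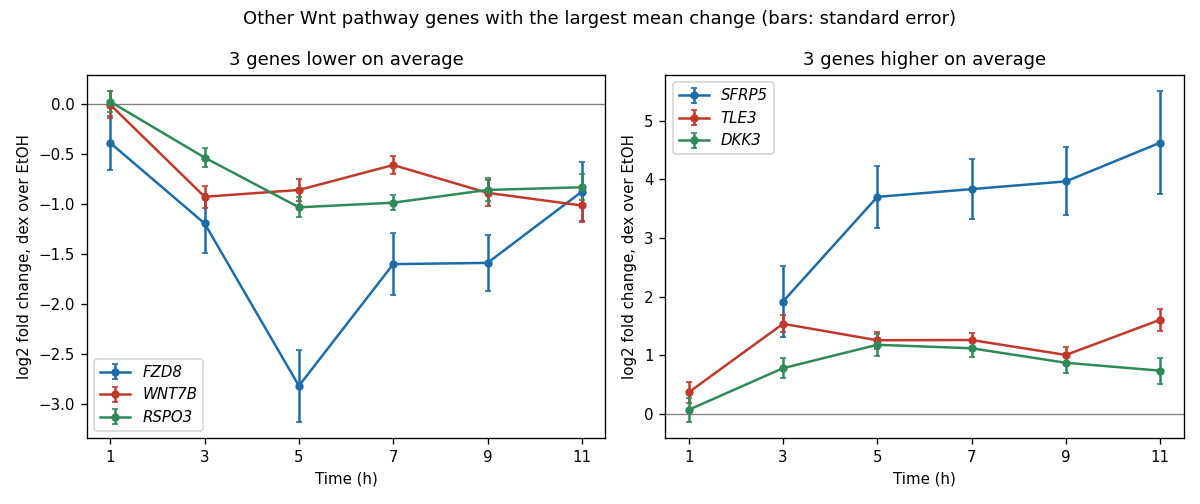
Log2 fold change of dex over EtOH from 1 to 11 h for 6 other pathway genes, the 3 with the largest mean change in each direction, with bars of 1 standard error from edgeR. FZD8, WNT7B and RSPO3 lie below 0 from 3 h onwards and SFRP5, TLE3 and DKK3 above 0.

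The genes whose levels were most like those of the members were found by Pearson's r of log2 CPM over the 24 libraries, among genes with a mean of at least 5 CPM. All points share the treatment and the time course, so r is a description. DKK1 was most like TGIF1 (r = 0.957) and DUSP4 (r = 0.954), with r of 0.925 and 0.867 within the 12 dex libraries and 0.105 and 0.217 within the 12 EtOH libraries. FZD7 was most like DIO2 (0.940, with 0.912 within dex and 0.131 within EtOH) and STEAP1 (0.935, with 0.929 and 0.0421). LGR4 was most like MMS22L (0.950) and WDR76 (0.939), and here r was still 0.752 and 0.903 within EtOH and 0.959 and 0.946 within dex. DACT2 was most like ZIC2 (0.880, with 0.630 within dex and 0.0508 within EtOH) and BDNF (0.876, with 0.486 and 0.314). The minimum of 5 CPM was not applied to the members, and DACT2 had 1 to 27 counts per library, so its r rests on few counts. AXIN2 was most like FOSL1 (0.867, with 0.399 and 0.667) and TFAP2A (0.861, with 0.249 and 0.699). TCF7L2 was most like NUP205 (0.816, with 0.933 and 0.362) and FBXO32 (0.816, with 0.914 and 0.665).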

How the data were processed

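RNA-seq counts were used from 12 dex and 12 EtOH libraries of A549 cells. The authors mapped the reads to GENCODE transcripts on hg19 with Bowtie and counted them with SAMtools, so the deposited values are raw counts per transcript, not normalized. The row for unplaced reads held 0 counts. Treatment, duration and replicate were taken from the labels, whose protocol text gives 1 h for all libraries. The paper's methods give triplicates, and the labels give 2 replicates. Transcripts were joined to genes by identifier without version through GENCODE release 29 (GRCh38), which placed 110262 of 119207 transcripts and 94.1% of the counts, and summed per gene. Transcripts with no gene stayed as features of their own. Library totals ran from 6708864 to 13748598 counts.

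Each time point was fitted by itself in edgeR 4.0.16 (R 4.3.3) with TMM normalization, filterByExpr and its robust quasi-likelihood test. P-values were adjusted by Benjamini-Hochberg over all genes tested, at a threshold of 0.1. The dex effect between time points was tested over 24 libraries and the EtOH time course over 12. SE was taken as the log2 fold change over the root of its F statistic. CPM uses TMM library sizes, and log2 CPM a prior count of 2. TPM divides by the transcript lengths of GENCODE. Intervals of count ratios are exact binomial (Clopper-Pearson) from scipy 1.17.1. The test was checked on simulated counts. Alternatives were DESeq2 1.42.0, its size factors in edgeR, no filter, a minimum of 10 counts per library, a joint fit of all 24 libraries, a block for the replicate number, one transcript per gene, a threshold of 0.05, 0.5 as the prior count, and single libraries left out. The block and the omissions in the EtOH time course were added after the data had been seen.

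The members and lists were chosen with earlier results of these data known. The text names all 10 members, of the 92 other pathway genes the 3 furthest from 0 in mean log2 fold change on each side among those called at 2 or more consecutive time points, and the 2 genes most like each member called at consecutive time points. TSC22D3 and the receptors FZD2, FZD3, FZD4, FZD5, LRP5, LRP6 and ROR1 were named outside this rule, after their values were seen.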

Additional observations from a re-analysis of the deposited data

Results flagged for a closer look

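The effect of dex itself differed between the 6 time points for 4 of the 9 tested genes in the edgeR interaction F-test over 24 libraries, where 13.8% of all genes tested were called. The adjusted p was 0.000304 for DKK1, 0.0247 for LGR4, 0.0318 for FZD7 and 0.0988 for TCF7L2. DKK1 and LGR4 were called in all 24 fits that left out a library, FZD7 in 22 of them and TCF7L2 in 6.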

How the results depend on the processing

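With 2 libraries per group, calls rested on dispersions shared between genes, and genes with few counts such as DACT2 and LEF1 were limited by depth. DESeq2 called fewer genes, 1240 at 3 h, 2479 at 5 h, 2560 at 7 h, 1928 at 9 h and 1125 at 11 h, where edgeR called 2577, 4568, 5132, 3617 and 1694. It called 0 of the members at 1 h (2 had an unadjusted p under 0.05, AXIN2 and DKK1) and 3 at 9 h, where edgeR called 1 and 5 with DACT2 counted in. At 1 h, 0 members were called with one transcript per gene or at a threshold of 0.05, and 2 with the replicate block. Of all genes, 307 were called at 1 h with no filter and 649 with the replicate block, against 159. One transcript per gene gave 2393 genes at 9 h and 1113 at 11 h, and one fit over 24 libraries gave 2971 at 11 h. At 11 h AXIN2 passed with no filter (adjusted p 0.0984, edgeR) and in one fit over 24 libraries (0.0649). In that fit FZD7 at 3 h (0.103) and TCF7L2 at 7 h (0.137) were lost, and with one transcript per gene AXIN2 at 1 h (0.156) and TCF7L2 at 5 h (0.209) and 7 h (0.119). The causes were not tested.

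None of the log2 fold changes that turned sign under an alternative had been called. With one transcript per gene they were PORCN at 3 h (-0.26) and 11 h (-0.11), RNF43 at 1 h (0.23), 9 h (-0.093) and 11 h (-0.0026), TCF7L2 at 1 h (-0.27) and ZNRF3 at 7 h (-0.0068), and with no filter TCF7L2 at 1 h (-0.0010).

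Same-numbered replicates of dex and EtOH deviated together with correlations from -0.0799 to 0.161 over the time points, so the numbers were not taken to pair the samples. The correlations were highest at 1 h (0.161) and 9 h (0.114). There the block lowered the coefficient of variation, from 9.38% to 6.58% at 1 h and from 10.1% to 8.26% at 9 h. At 9 h 5198 genes were called with it, against 3617. At 3 h (-0.0799) the block raised it from 8.03% to 9.63%, and 2200 genes were called against 2577. With the replicate block DKK1 passed at 1 h (adjusted p 0.0448, edgeR), and beside this no member gained or lost a call.

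Leaving out each library in turn, the number of members called, DACT2 included, ran from 0 to 2 at 1 h, from 0 (without the first dex replicate) to 6 at 9 h, from 1 to 5 at 11 h and from 2 to 4 in the interaction test. The number of genes called ran from 92 to 766 at 1 h, 1497 to 2997 at 3 h, 3364 to 5862 at 7 h, 1394 to 6060 at 9 h and 829 to 5804 at 11 h. It ran from 204 to 1059 for 11 h minus 5 h, from 1871 to 4621 for the interaction and from 23 (without the first EtOH replicate at 7 h) to 2305 for the EtOH time course. A lone library was assumed to vary like the other group. Signs turned at 1 h for DACT2 (-3.13 to 0.067), FZD7 (-0.045 to 0.19), LGR4 (-0.13 to 0.10), RNF43 (-0.15 to 0.070), TCF7L2 (-0.064 to 0.073) and ZNRF3 (-0.29 to 0.043), at 7 h for ZNRF3 (-0.021 to 0.066), at 9 h for PORCN (-0.077 to 0.23), and at 11 h for PORCN (-0.021 to 0.058), RNF43 (-0.076 to 0.32) and TCF7L2 (-0.094 to 0.17). They turned for 11 h minus 5 h in DACT2 (-1.13 to 0.37), FZD7 (-0.18 to 0.29) and ZNRF3 (-0.16 to 0.16). Leaving out a whole replicate number in the interaction test was not run, as it leaves no residual degrees of freedom.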
